A study of Mus musculus with 20 samples.

Results

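The genes described here are Pdcd1 and 6 other immune checkpoint genes, Cd274, Havcr2, Lag3, Vsir, Lilrb4a and Lgals9, in the left hippocampus of 20 mice. They were picked by name, because Pdcd1 was much higher in mice carrying the Tg-SwDI transgene, and they are 7 of 39056 genes in the count table. All 7 were among the 16107 genes that passed a filter on low counts, but Pdcd1 and Lilrb4a had at most 5 counts in any mouse without the transgene and passed through the transgenic mice. For that reason the contrast of Tg-SwDI with Non-Tg mice is given for these genes as a description with no test, and tests are kept for the effect of miR-34a.

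The study asked how loss of the microRNA miR-34a bears on a mouse model of cerebral amyloid disease. Female C57BL/6 mice aged 12 to 13 months were wild type for miR-34a (WT) or lacked it (KO), and of either genotype 5 carried the Tg-SwDI transgene and 5 did not (Non-Tg), which gave 4 groups. Tg-SwDI mice express human APP with the Swedish, Dutch and Iowa mutations from the mouse Thy1 promoter, which drives expression in neurons, and the miR-34a deletion was constitutive and whole-body. Each mouse gave 1 RNA-seq library, with 19549622 to 21066868 counts per library, so that p-values measure the spread between mice. Thy1 was at 724 ± 30.1 CPM (a gene's counts over the effective size of its library, scaled to a fixed size) in WT Non-Tg and 722 ± 23.5 in KO Non-Tg mice, and reached 2176 ± 163 and 2819 ± 315 in the Tg-SwDI mice of these genotypes (mean ± SD, n = 5 each), which separated the libraries by their transgene labels. The effective size is the library's total count times a TMM factor, which corrects for composition; the factor was 0.901 for KO Tg-SwDI replicate 8 and from 0.981 to 1.03 for the other libraries, so that CPM in that mouse are higher than its share of counts. Between the transgenic groups Thy1 itself was higher in the KO mice (log2 fold change 0.37, SE 0.06, adjusted p = 0.00416 in edgeR's quasi-likelihood test), with no overlap of the groups, also by library size alone, while in Non-Tg mice it did not pass (-0.01, SE 0.06, adjusted p = 0.993). Mouse App did not pass between the Tg-SwDI groups (-0.04, SE 0.05, adjusted p = 0.752). Human APP was not analysed here, and whether transgene expression differed between the KO and WT Tg-SwDI mice, with a part in the differences between them given below, was not tested. Mir34a was not analysed here, so the KO label has no check of its own. The 8 hippocampus genes examined summed to between 848 and 1067 CPM in all 20 mice.

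Immune checkpoints are receptor and ligand pairs that restrain immune cells. PD-1, the product of Pdcd1, is an inhibitory receptor best known on activated and exhausted T cells, and its ligand PD-L1 is encoded by Cd274. Havcr2 encodes TIM-3, another inhibitory receptor, and Lgals9 encodes galectin-9, a secreted lectin that binds it. Lag3 is an inhibitory receptor for MHC class II, Vsir encodes VISTA, and Lilrb4a encodes an inhibitory immunoglobulin-like receptor of myeloid cells. In the brain, microglia also carry several of these receptors.

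The microRNA removed in the KO mice is shown first, with the places where its seed meets the members. In the sequence of mature miR-34a-5p (RefSeq, GRCm38.p6, chr4:150068473-150068494, plus strand) the capitals mark the seed, bases 2 to 8.

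mmu-miR-34a-5p: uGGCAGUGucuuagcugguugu

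The seed match was searched in the longest annotated 3′UTR of each gene (GENCODE, GRCm38) as CACTGCC, or as its last 6 bases followed by A, on the transcribed strand. Havcr2 held 2 matches and Vsir 1, whereas the 3′UTRs of Pdcd1, Cd274, Lag3, Lilrb4a and Lgals9 held none of these letters. A match was present in 4158 of 21037 genes with a 3′UTR (19.8%), and the full match followed by A in 4.9%. In the 3 sites below, each 30 bases in 5′ to 3′ order, capitals mark the match, and the first is the full match at chr11:46480572-46480579 (plus strand), the next lies at chr11:46479457-46479463 (plus strand) and the last at chr10:60370655-60370661 (plus strand).

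Havcr2, full match: actgtgcccaaCACTGCCAgactcttctta
Havcr2, shorter match: ccgcctctggACTGCCActtttaaaggctc
Vsir, shorter match: tggcctggcgaACTGCCAgctgttcagtgg

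These matches are letters in a sequence and not shown to be sites of action; the genes that hold them, Havcr2 and Vsir, had adjusted p of 0.238 and 0.202 for KO against WT in Tg-SwDI mice (quasi-likelihood test of edgeR, Benjamini-Hochberg adjusted).

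Pdcd1 is a gene of the minus strand at chr1:94038305-94052553 (mm10). In WT Non-Tg mice it had 2, 2, 2, 0 and 3 counts, and in KO Non-Tg mice 3, 3, 2, 3 and 3. In WT Tg-SwDI mice it had 45, 79, 45, 57 and 45 counts, and in KO Tg-SwDI mice 114, 99, 85, 72 and 63. The gene was thus close to undetected without the transgene and present in every mouse that carried it, with no overlap between the transgenic and non-transgenic groups. From the summed counts, Pdcd1 was 29.9 times higher in WT Tg-SwDI than in WT Non-Tg mice (95% exact counting interval 15.5 to 66.0, from 271 and 9 counts). In KO mice the ratio was 32.7 (19.3 to 60.3, from 433 and 14 counts). These intervals cover counting error only.

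Between the transgenic groups, mean Pdcd1 was 4.36 ± 0.87 CPM in KO and 2.59 ± 0.69 CPM in WT mice (mean ± SD, n = 5 each). The 3 highest KO mice lay above every WT mouse, and the other KO mice fell below the highest WT mouse, so the groups overlapped. The log2 fold change was 0.75 (SE 0.18), with an adjusted p of 0.0269 in edgeR's quasi-likelihood test. This call depended on the mice: leaving out replicate 3, 5 or 7 of the WT Tg-SwDI mice gave an adjusted p of 0.0850, 0.0800 or 0.0821, and leaving out KO Tg-SwDI replicate 1 gave 0.0501. It was also 0.0902 when only the 10 Tg-SwDI mice were fitted, and 0.0506 with library size alone in place of TMM. Pdcd1 was not called under a replicate block either, where 0 members and 8 of the 16107 genes were called. Thy1, the gene whose promoter drives the transgene, passed the same contrast, as given above.

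Among the 16107 genes tested, 320 (1.99%) passed an adjusted p of 0.05 for KO against WT in Tg-SwDI mice, 239 of them higher and 81 lower in KO mice. Of the 7 checkpoint genes, 2 rose, Pdcd1 and Lgals9, and the other 5 did not pass the test. All 7 log2 fold changes were above 0, with a median of 0.46 beside a median of 0.00 over all genes tested. Values of microglia markers in the same comparison are given further on.

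**Figure D1:**
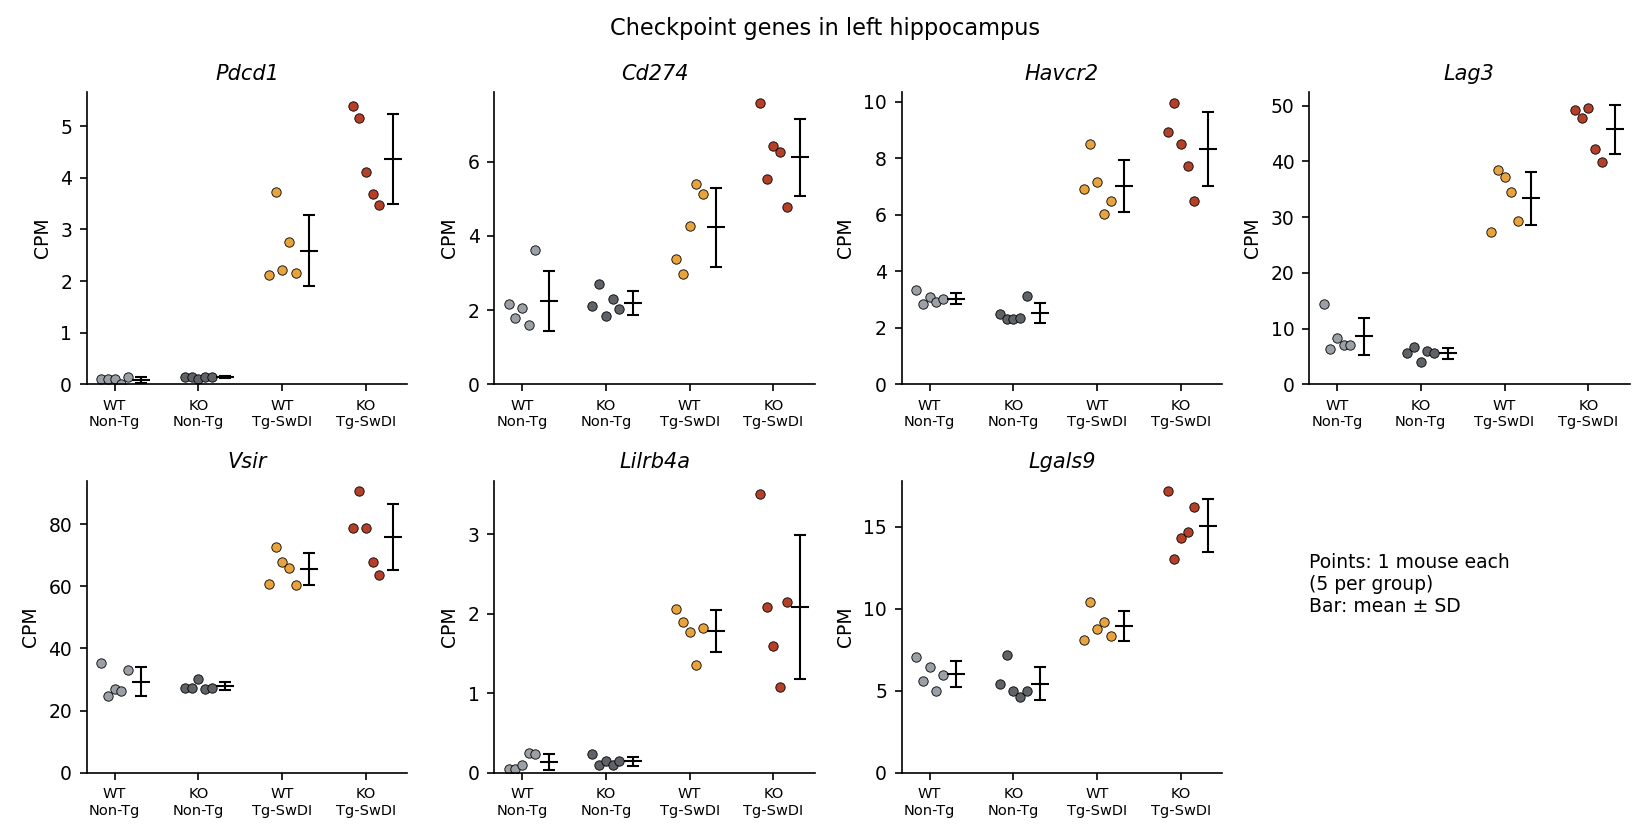
CPM of the 7 checkpoint genes in each mouse (points, 5 per group), with the mean and SD of each group beside them and a linear axis from 0 for each gene. Pdcd1 and Lilrb4a lie near 0 in both Non-Tg groups, and the 5 KO Tg-SwDI mice lie above all WT Tg-SwDI mice for Lgals9 and, in these TMM-scaled values but not by library size alone, for Lag3.

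Lgals9, on the minus strand at chr11:78962974-78984946, had the firmest difference between KO and WT mice. In WT Tg-SwDI mice it was at 8.12, 10.4, 8.73, 9.17 and 8.32 CPM, and in KO Tg-SwDI mice at 17.2, 13.03, 14.3, 14.7 and 16.2 CPM. Every KO mouse was above every WT mouse, a separation that 508 of the 16107 genes tested (3.15%) showed in either direction and that 2 of the 7 checkpoint genes showed, Lgals9 and Lag3. By library size alone, a setting chosen after seeing the data, 1 of the 7 showed it, Lgals9, beside 3.14% of all genes tested. The log2 fold change of Lgals9 was 0.75 (SE 0.11, adjusted p = 0.00107 in edgeR's quasi-likelihood test), and it passed in each of 28 alternative fits without the replicate block, with adjusted p from 8.8e-08 to 0.00679. With the replicate block Lgals9 did not pass: 0 of the 7 members and 8 of the 16107 genes were called. In Non-Tg mice Lgals9 was at 6.01 ± 0.78 CPM in WT and 5.42 ± 1.01 CPM in KO mice (mean ± SD, n = 5 each), and these groups overlapped.

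Lag3 lies on the minus strand at chr6:124904361-124911705. It had 584, 812, 758, 716 and 612 counts in WT Tg-SwDI mice and 1040, 916, 1028, 826 and 724 in KO Tg-SwDI mice. Without the transgene it had 305, 126, 177, 142 and 147 counts in WT and 118, 141, 82, 124 and 115 in KO mice. In CPM the transgenic KO mice, at 49.2, 47.8, 49.6, 42.3 and 39.8, lay above the transgenic WT mice, at 27.4, 38.4, 37.2, 34.6 and 29.3. That separation rested on the TMM factor of KO replicate 8: by library size alone this mouse was at 35.9 CPM, below WT replicates 4 (39.2) and 5 (37.1), and the groups overlapped. WT Non-Tg replicate 2, with 305 counts, stood above the other Non-Tg mice. The log2 fold change for KO against WT was 0.46 in Tg-SwDI mice (SE 0.16, adjusted p = 0.137 in edgeR's quasi-likelihood test), which did not pass. Without WT Non-Tg replicate 2, the adjusted p was 0.0230, at a log2 fold change of 0.46. All 20 mice share 1 estimate of the spread, and the cause of this change was not tested. WT Non-Tg replicate 2 also had the highest summed microglia level of the Non-Tg mice, 671 CPM against 431 to 527 CPM in the others.

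Cd274, on the plus strand at chr19:29367455-29388095, is the ligand of the PD-1 pair. It was at 3.38, 2.98, 4.27, 5.41 and 5.11 CPM in WT Tg-SwDI mice and at 7.57, 5.53, 6.42, 6.25 and 4.79 CPM in KO Tg-SwDI mice. The lowest KO mouse fell within the range of the WT mice, and the other 4 lay above it. The log2 fold change was 0.53 (SE 0.18, adjusted p = 0.110 in edgeR's quasi-likelihood test), which did not pass. An antisense transcript, AC119228.1, shares 14.1% of the exonic bases of Cd274; whether strand was used in library preparation and counting is not given in the sources used here, so reads of these transcripts cannot be told apart.

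Havcr2, on the plus strand at chr11:46454935-46481255, was at 7.02 ± 0.93 CPM in WT and 8.33 ± 1.30 CPM in KO Tg-SwDI mice (mean ± SD, n = 5 each), with overlapping groups. Vsir, on the plus strand at chr10:60346851-60372684, was at 65.5 ± 5.17 CPM and 75.9 ± 10.6 CPM in the same groups, which also overlapped. Their log2 fold changes were 0.25 (SE 0.11) and 0.21 (SE 0.09), and neither passed the test.

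Lilrb4a, on the plus strand at chr10:51490956-51496611, resembled Pdcd1 in being nearly absent without the transgene. It had 1, 1, 2, 5 and 5 counts in WT Non-Tg mice and 5, 2, 3, 2 and 3 in KO Non-Tg mice, against 44, 40, 36, 28 and 38 in WT Tg-SwDI mice. In KO Tg-SwDI mice it had 74, 40, 33, 21 and 39 counts, the widest spread of any of these groups. Its summed counts were 13.2 times higher in WT Tg-SwDI than in WT Non-Tg mice (95% exact counting interval 7.66 to 24.6), and 14.6 times in KO mice (8.64 to 26.5). KO and WT Tg-SwDI mice overlapped, at a log2 fold change of 0.23 (SE 0.24, adjusted p = 0.647 in edgeR's quasi-likelihood test). A second gene model, Gm49339, covers 35.3% of the exonic bases of Lilrb4a on the same strand and was listed at 0 in all 20 mice, so that reads shared by the models may be missing from Lilrb4a.

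**Figure D2:**
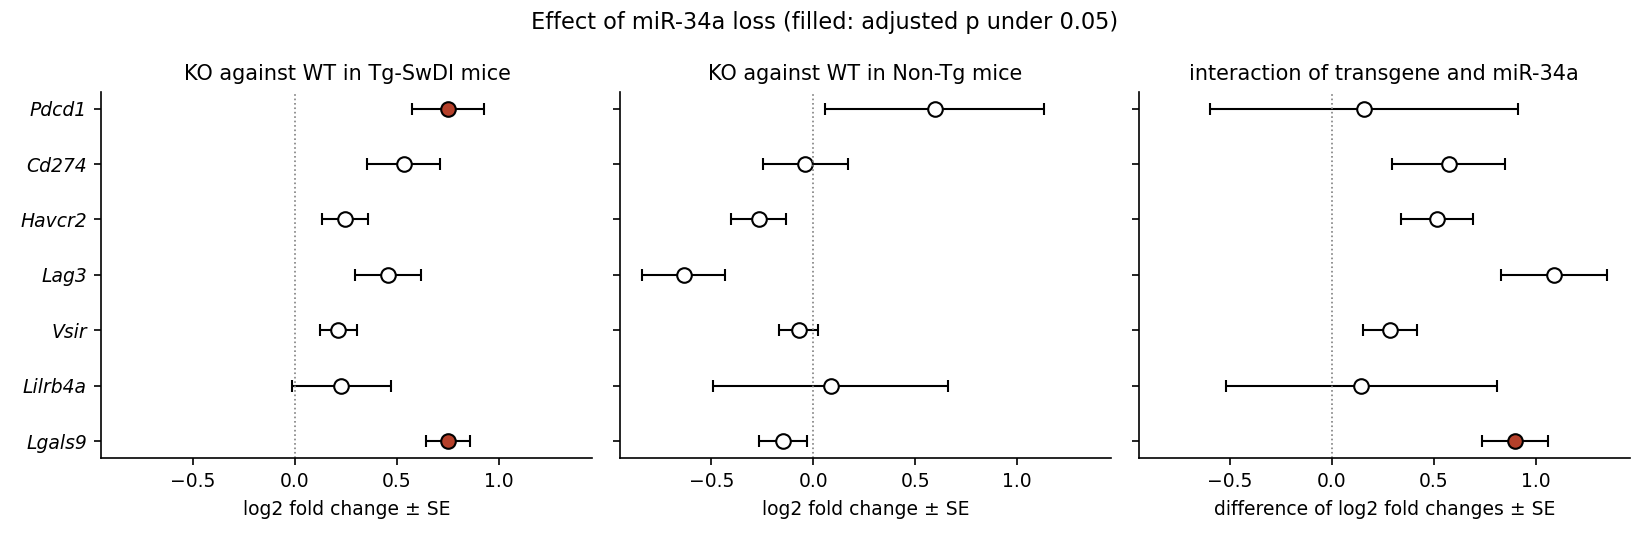
Log2 fold change of KO against WT (± SE, edgeR) for the 7 genes in Tg-SwDI mice (left) and Non-Tg mice (middle), and the difference between both (right); filled points passed an adjusted p of 0.05. Pdcd1 and Lgals9 are filled at left, none in the middle, and Lgals9 at right.

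In Non-Tg mice the same loss of miR-34a gave no call in the fit used here. None of the 16107 genes passed in edgeR's quasi-likelihood test (0.0%), with 1302 genes at an unadjusted p under 0.05, 4 called by edgeR's exactTest and 7 by DESeq2. The study itself, also with edgeR, reported more genes under an FDR of 0.05 in this comparison, most of them lower in KO mice. Why the numbers differ was not tested. The log2 fold changes of the checkpoint genes ran from -0.63 for Lag3 (SE 0.20, adjusted p = 0.508) to 0.60 for Pdcd1 (SE 0.54), the latter from 9 and 14 summed counts. Their median was -0.07, and 2 of the 7 were above 0.

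The difference between the KO effect in Tg-SwDI mice and that in Non-Tg mice was tested as an interaction. Of the 16107 genes, 98 (0.608%) passed, and of the 7 checkpoint genes 1 did, Lgals9, whose KO effect was larger in Tg-SwDI mice by 0.90 on the log2 scale (SE 0.16, adjusted p = 0.0156 in edgeR's quasi-likelihood test). Lag3 had the largest estimate, 1.09 (SE 0.26), with an adjusted p of 0.0594 that did not pass; it was 0.00715 with DESeq2 and 0.0464 without WT Non-Tg replicate 2, at an estimate of 0.83. The Pdcd1 estimate was 0.16 (SE 0.76), with only 9 and 14 summed counts behind its Non-Tg side. With so wide an SE, this does not show that the KO effect on Pdcd1 was alike in both backgrounds. The level of choroid plexus genes varied widely between mice, although 0 of the 15 genes of the list, with Ttr the most abundant, passed this interaction or KO against WT in Non-Tg mice. For Tg-SwDI against Non-Tg mice, 13 of the 15 rose in KO mice, with a median of 2.999 on the log2 scale, and none passed in WT mice. Their summed level was 273, 733, 377, 522 and 398 CPM in KO Non-Tg mice and 3070, 463, 5063, 310 and 6921 CPM in WT Non-Tg mice. In Tg-SwDI mice it was 5795, 5446, 5065, 5682 and 406 CPM (WT) and 3378, 421, 5000.3, 5560 and 5657 CPM (KO). All KO Non-Tg mice were low, as were 2 WT Non-Tg mice and 1 mouse of each Tg-SwDI group. With that level as a covariate, the Lgals9 interaction was 0.79 (adjusted p = 0.0343).

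The effect of the transgene on the members, which chose them, is described without a test. The log2 difference of Tg-SwDI and Non-Tg mice in WT animals was 1.95 for Lag3, 1.21 for Havcr2, 1.16 for Vsir, 0.91 for Cd274 and 0.57 for Lgals9. In KO animals it was 3.04 for Lag3, 1.72 for Havcr2, 1.45 for Vsir, 1.48 for Cd274 and 1.47 for Lgals9. Non-Tg and Tg-SwDI mice did not overlap for any member in either background, except for Cd274 in WT mice, where 3 of 5 Tg-SwDI mice lay above all Non-Tg mice. Over all genes tested, these groups did not overlap for 6.69% in WT and 12.8% in KO mice, and nothing is read from the members' count, since this contrast chose them. By adjusted p, 710 of 16107 genes (4.41%) passed in WT and 3351 (20.8%) in KO mice. With the choroid plexus level as a covariate, 695 passed in WT and 1228 in KO mice.

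Divided by exonic length, the members differed widely in level. In WT Tg-SwDI mice Lag3 was highest, at 15.8 ± 2.29 CPM per kb, and did not separate from Vsir at 13.1 ± 1.03. Lgals9 followed at 4.19 ± 0.42, then Havcr2 at 2.58 ± 0.34, each with its range apart from its neighbours. Pdcd1, at 1.34 ± 0.36 CPM per kb, overlapped Cd274 at 1.17 ± 0.29, and Lilrb4a was lowest at 0.34 ± 0.05 (mean ± SD, n = 5). In WT Non-Tg mice Vsir led at 5.84 ± 0.92 CPM per kb, overlapping Lag3 at 4.08 ± 1.58, and Pdcd1 was sixth, after Cd274. Lag3 overlapped Lgals9 in both Non-Tg groups, and in KO Non-Tg mice Lag3 and Lgals9 changed places when the longest transcript gave the length. Pdcd1 was at 0.04 ± 0.03 CPM per kb in WT Non-Tg mice.

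Microglia genes were examined in the same contrasts. Of 12 general microglia genes, 12 rose in Tg-SwDI against Non-Tg WT mice, and 6 of 12 rose in KO against WT Tg-SwDI mice (median log2 fold change 0.45). Of 10 homeostatic microglia genes, 9 rose in the first contrast and 2 in the second (median 0.27), where their summed CPM overlapped between the groups. Over all genes tested, 4.41% and 1.99% passed these contrasts in either direction. The summed level of the 12 general genes was 1219, 1479, 1449, 1389 and 1314 CPM in WT Tg-SwDI mice and 1978, 2012, 1975, 1585 and 1603 CPM in KO Tg-SwDI mice. These ranges did not overlap in CPM, but by library size alone KO replicate 8 was at 1445, below WT replicate 4 at 1510, and the groups overlapped. Whether more microglia or more RNA per microglia lay behind any level here cannot be told apart in bulk tissue. To compare the members with these genes, the mean log2 CPM of the 12 genes was taken from the log2 CPM of each member in each mouse, and KO and WT Tg-SwDI mice were compared by a two-sided exact permutation test.

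Relative to the microglia genes, Pdcd1 differed by 0.32 on the log2 scale between KO and WT Tg-SwDI mice (-4.38 ± 0.15 against -4.70 ± 0.28, exact p = 0.0635, n = 5 each). Lgals9 differed by 0.32 as well (exact p = 0.0556), Lag3 by 0.03 (exact p = 0.627) and Cd274 by 0.11 (exact p = 0.619). Vsir was lower relative to the microglia genes in every KO mouse than in every WT mouse, the difference being -0.22 (exact p = 0.00794, the smallest that 5 against 5 mice allow), and for Havcr2 it was -0.19 (exact p = 0.0476). Lilrb4a differed by -0.30 (exact p = 0.294). After adjustment over these 7 tests none passed 0.05, the lowest adjusted p being 0.0556, which is also the smallest a single gene could reach here. With 10 homeostatic microglia genes as the reference in place of the 12, every difference was higher: 0.50 for Pdcd1, 0.51 for Lgals9, 0.22 for Lag3, 0.30 for Cd274 and -0.03 for Vsir, and none passed after adjustment. A KO difference of Pdcd1 or Lgals9 beyond that of the microglia genes thus did not pass, which does not show that they moved alike.

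**Figure D3:**
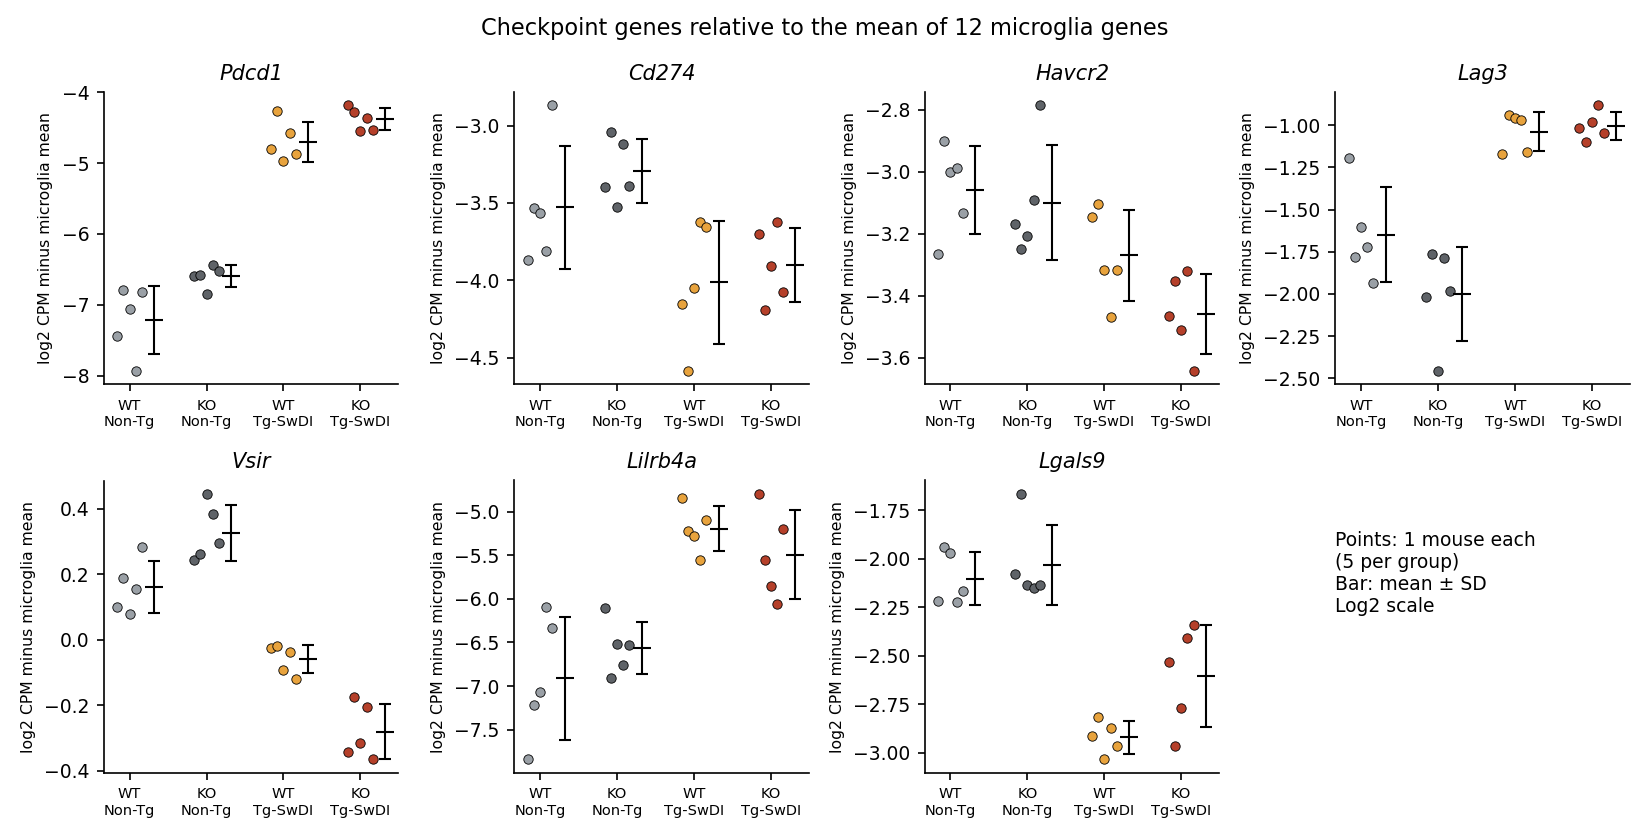
Log2 CPM of each checkpoint gene minus the mean log2 CPM of 12 microglia genes, in each mouse (points, 5 per group), with group mean and SD; axes do not start at 0. KO Tg-SwDI mice lie below all WT Tg-SwDI mice for Vsir, while the transgenic groups overlap for Pdcd1, Lag3 and Cd274.

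Markers of the cells best known for PD-1 were low, though not all absent. Cd3d, Cd3g, Cd8a and Cd2, which mark T cells, had at most 11 counts in any mouse, and did not pass the filter. In KO mice the counts of Cd8a and Cd3g did not overlap between groups, beside 12.8% of all genes tested without overlap in CPM. Summed over 5 mice, Cd8a had 6 counts without and 29 with the transgene, and Cd3g 4 and 25, where Pdcd1 had 14 and 433. There, Cd3e had 13 and 14 counts, Cd3d 6 and 8, and Cd8b1 6 and 8. Cd2 had 6 and 10, and Trbc1 3 and 13. In WT mice Cd8a had 13 counts without and 17 with the transgene, and Cd3g 15 and 18. Cd3e had 12 and 30 in WT mice, Cd3d 4 and 3, and Cd8b1 8 and 11. Cd2 had 12 and 8, and Trbc1 7 and 11. Whether T cells had a part in the Pdcd1 level was not tested. Of the 17 T cell genes, 7 passed the filter on low counts, none rose in WT Tg-SwDI mice and 1, Trac, rose in KO Tg-SwDI against KO Non-Tg mice. Trac, a T cell receptor gene, had 22 to 36 counts per KO Tg-SwDI mouse (1.45 ± 0.33 CPM) and 9 to 22 per KO Non-Tg mouse (0.81 ± 0.24 CPM), and Trbc2 had 7 to 37 counts per KO Tg-SwDI mouse. The most abundant T cell gene, Zap70, was at 4.36 CPM in WT and 4.18 CPM in KO Tg-SwDI mice. The summed T cell level was 14.3 ± 1.27, 13.4 ± 1.11, 13.4 ± 0.47 and 15.1 ± 1.53 CPM in WT Non-Tg, KO Non-Tg, WT Tg-SwDI and KO Tg-SwDI mice. Zap70, Tcf7 and Lck made up most of it, at 4.56, 4.06 and 1.34 CPM in WT Non-Tg mice. The sum therefore says little about genes as low as Cd3g, Cd8a or Cd4. Cd4 was at 0.24 ± 0.12 CPM in KO Non-Tg and 0.43 ± 0.31 CPM in KO Tg-SwDI mice. Of 8 NK cell genes, 1 passed the filter, Eomes, and it was not called with the transgene in WT or KO mice. Klrb1c, below the filter, had 0 to 2 counts per KO Non-Tg mouse and 3 to 5 per KO Tg-SwDI mouse. Levels this low bear only on these markers, and the cells that carried Pdcd1 RNA were not identified.

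The genes nearest to Pdcd1 in profile were sought among all genes tested. The measure was the root mean square difference of centred log2 CPM over the 20 mice, and the 6 nearest genes were Ccl6 (0.37), Ctse (0.44), Gpnmb (0.54), Hcar2 (0.55), Tgm1 (0.58) and Spp1 (0.63). Ccl6, Ctse, Gpnmb and Spp1 belong to the disease-associated microglia list used here, which was drawn up with earlier results of these data known. This is a description with no test. Like Pdcd1, the genes Ctse, Hcar2 and Tgm1 were near 0 in Non-Tg mice, with group means of at most 0.19 CPM. At such levels the prior count of 2 draws log2 CPM together. For the other genes with a spread over 0.5 on the log2 scale, the nearest were Tyrobp for Lag3, Tnfaip8l2 for Havcr2, Nckap1l for Vsir, Trem2 for Lilrb4a, Tap1 for Cd274 and Apobec3 for Lgals9. These profiles share the libraries and the contrast of the groups. Of 13 disease-associated microglia genes, 3 (Cst7, Ctse and Atp6v0d2) had a median under 10 counts in Non-Tg mice, and the other 10 rose in Tg-SwDI WT mice, while 8 of 13 rose in KO against WT Tg-SwDI mice (median log2 fold change 0.50).

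**Figure D4:**
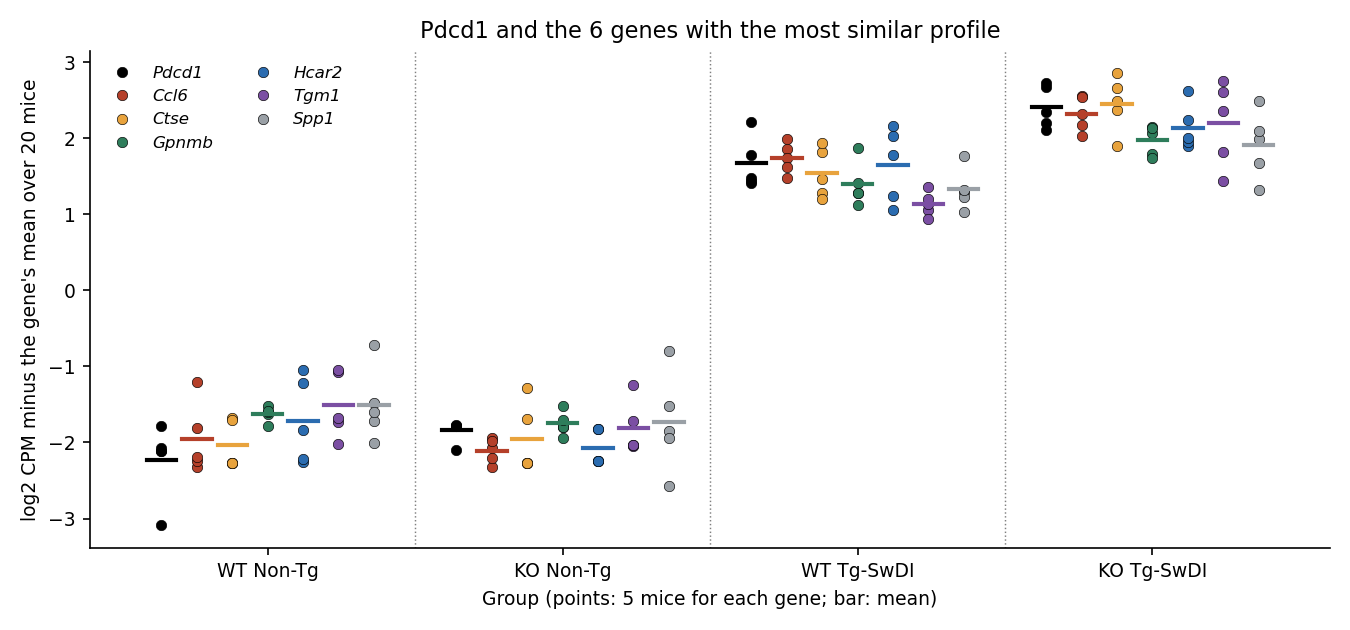
Centred log2 CPM of Pdcd1 and the 6 genes nearest to it in profile, for 5 mice in each group (points) with the group mean (bar). All 7 are below their own mean in Non-Tg mice and above it in Tg-SwDI mice.

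Other genes of the checkpoint system were counted from lists of 61 genes, drawn up with earlier results of these data known. Of the 61, 41 passed the filter. Of these 41, 12 were called in Tg-SwDI against Non-Tg WT mice, 11 higher and 1 lower (Cd40), and the median log2 fold change was 0.17 beside 0.00 for all genes. In KO mice 16 were called, all higher; with the choroid plexus covariate 12 were called in KO mice, and 12 in WT mice. These shares, 29.3% and 39.0%, stand beside 4.41% and 20.8% of all genes tested. In the same WT contrast 12 of 12 microglia genes and 9 of 10 homeostatic microglia genes rose, and in KO mice 12 of 12 and 10 of 10. Whether the higher share is particular to checkpoint genes was not tested. Genes with low counts in Non-Tg mice can pass the filter only where they are high; among the 34 with a median of at least 10 counts in Non-Tg mice, a limit chosen after seeing the data, 10 (29.4%) were called in WT and 13 (38.2%) in KO mice, beside 4.23% and 20.7% of all genes with such a median.

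Among 12 inhibitory receptors tested, 4 with more than such low counts rose in WT Tg-SwDI mice. Sirpa, the most abundant, rose by 0.17 (SE 0.05), Lair1, a collagen receptor, by 1.09 (SE 0.09), Cd33, a sialic acid receptor, by 0.83 (SE 0.10) and Cd300a by 0.95 (SE 0.20) on the log2 scale. Tnfrsf14 also passed, but from 2 to 9 counts per mouse in WT Non-Tg and 9 to 18 in WT Tg-SwDI mice. Ctla4, Tigit and Cd96, which are T cell and NK cell receptors, did not pass the filter, with group means of at most 0.12 CPM. Cd5, Cd244a, Lilr4b, Klrg1 and Klrc1 of this list did not pass it either. In KO mice Cd5 had 0 to 1 counts per mouse without and 5 to 11 with the transgene, and Cd244a 0 to 2 and 5 to 12. Lilr4b had 1 to 4 and 4 to 18 there, Klrg1 3 to 11 and 2 to 6, and Klrc1 0 to 1 and 0 to 4. In WT mice Cd5 had 1 to 6 and 4 to 7 counts, and Cd244a 1 to 4 and 3 to 8. Among ligands, 3 of 15 rose in WT mice: Cd86, which binds CTLA-4 and CD28, by 1.40, Lgals3, which binds LAG-3, by 1.21, and Selplg, a ligand of VISTA, by 0.79. Cd47 and Hmgb1, the most abundant with Cd200, did not pass.

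Selplg was the only one of the 41 that passed for KO against WT in Tg-SwDI mice (2.44%, near the 1.99% of all genes), at 67.4 ± 6.55 CPM in WT and 88.1 ± 3.21 CPM in KO mice (mean ± SD, n = 5 each; log2 fold change 0.39, SE 0.07, adjusted p = 0.00654 in edgeR's quasi-likelihood test), and it also passed the interaction (0.49, adjusted p = 0.0236). Of 14 costimulatory genes, 6 passed the filter and none rose in WT Tg-SwDI mice. Of 8 genes that carry the inhibitory signal, Ptpn6, the SHP-1 phosphatase, rose by 1.55 (SE 0.15), Inpp5d, the SHIP1 phosphatase, by 1.03 (SE 0.09) and Dok1 by 0.62 (SE 0.17) in WT mice. Ptpn11, the SHP-2 phosphatase that PD-1 recruits, was at 185 CPM in WT Tg-SwDI and 177 CPM in WT Non-Tg mice and did not pass.

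Interferon response genes differed in the same contrast as Lgals9. Their 14 genes had a median log2 fold change of 1.23 for KO against WT in Tg-SwDI mice, of which 5 passed, and summed to 434, 255, 352, 366 and 178 CPM in KO Tg-SwDI mice against 160, 174, 147, 190 and 150 CPM in WT Tg-SwDI mice. KO replicate 8, at 178 CPM, lay within the WT range, and the other KO mice lay above it. In that mouse Lgals9 was at 16.2 CPM, the second highest of the KO mice. The relation of these lists to Lgals9 was not tested.

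**Figure D5:**
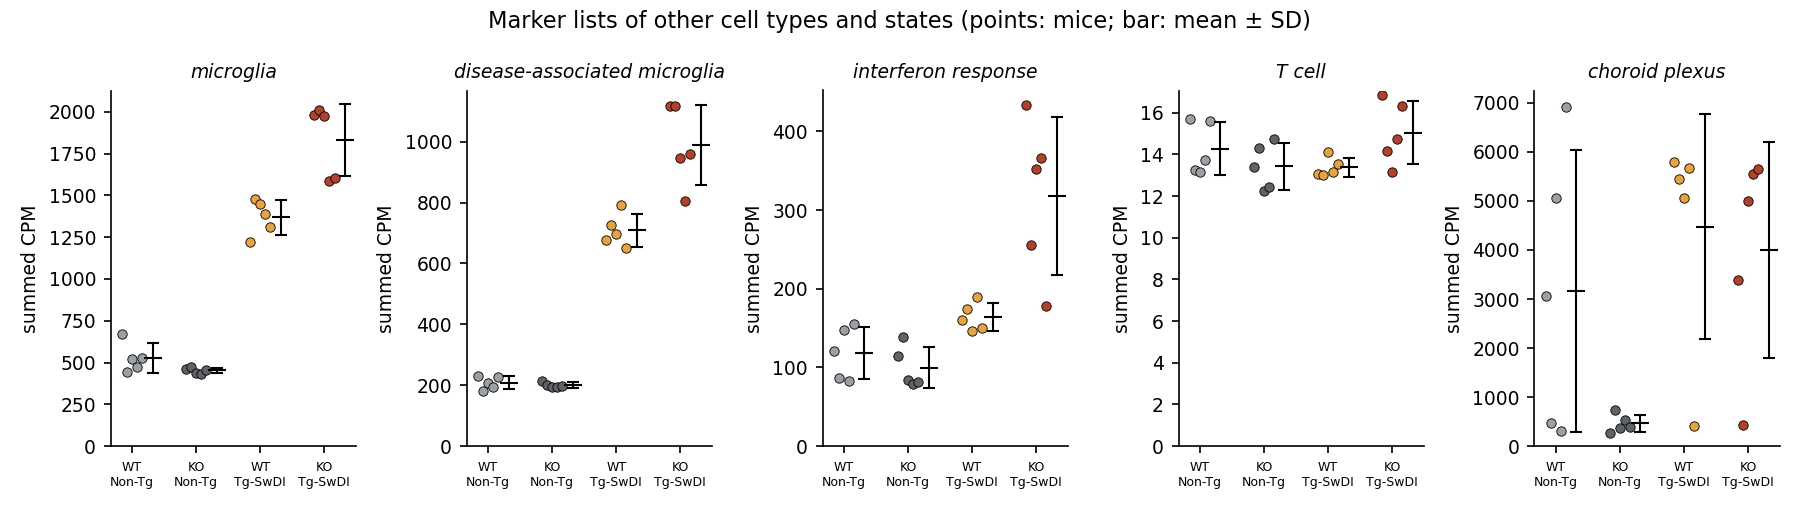
Summed CPM of the microglia, disease-associated microglia, interferon response, T cell and choroid plexus lists in each mouse (points, 5 per group), with group mean and SD on linear axes from 0. The microglia lists separate Tg-SwDI from Non-Tg mice, the T cell list lies between 12.2 and 16.8 CPM in all mice, and the choroid plexus list is low in all KO Non-Tg mice.

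Since Lgals9 and Cd274 are known interferon targets, the windows from 250 bases before to 50 after their start sites were read for the interferon-stimulated response element core GAAANNGAA, on both strands. It was present in 8.6% of 32851 RefSeq promoter windows (GRCm38.p6), once in Cd274, at -76, and at 2 places in Lgals9, at -54 and 17. The Pdcd1 window is shown with them as the gene that leads this set; it held neither this motif nor the gamma-interferon-activated site TTCNNNGAA (8.3% of windows), the PU.1 motif GAGGAAGT (3.2%), the AP-1 motif TGANTCA (7.8%) or the E-box CACGTG (7.2%), each searched on both strands. Capitals mark the matches, and each window reads 5′ to 3′ on the strand of its gene: chr11:78984875-78985174 (minus) for Lgals9, chr19:29367188-29367487 (plus) for Cd274 and chr1:94052504-94052803 (minus) for Pdcd1.

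Lgals9: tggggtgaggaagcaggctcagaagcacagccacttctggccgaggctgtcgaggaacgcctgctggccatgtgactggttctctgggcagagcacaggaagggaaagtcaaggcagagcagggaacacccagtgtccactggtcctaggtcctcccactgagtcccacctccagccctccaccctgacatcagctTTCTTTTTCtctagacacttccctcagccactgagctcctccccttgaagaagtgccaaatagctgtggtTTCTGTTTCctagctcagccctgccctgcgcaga
Cd274: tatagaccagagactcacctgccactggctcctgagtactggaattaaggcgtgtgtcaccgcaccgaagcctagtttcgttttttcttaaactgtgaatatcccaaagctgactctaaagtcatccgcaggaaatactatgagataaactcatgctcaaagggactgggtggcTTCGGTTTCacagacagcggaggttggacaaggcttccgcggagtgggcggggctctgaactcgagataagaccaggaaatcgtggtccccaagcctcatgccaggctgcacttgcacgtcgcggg
Pdcd1: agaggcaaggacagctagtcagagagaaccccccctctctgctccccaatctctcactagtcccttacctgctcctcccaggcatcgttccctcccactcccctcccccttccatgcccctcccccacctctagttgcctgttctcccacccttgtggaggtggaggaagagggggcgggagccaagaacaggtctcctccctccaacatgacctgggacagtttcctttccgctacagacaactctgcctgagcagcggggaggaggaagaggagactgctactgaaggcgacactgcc

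Windows of 5 of the 7 members were read, and those of Lag3 and Lilrb4a were not. In Havcr2 the PU.1 and AP-1 motifs each occurred once, at -8 and -200, and in Vsir none of the 5 motifs occurred. These matches are descriptions of the letters, and no binding was measured.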

How the data were processed

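The counts are whole-number reads per gene that the authors deposited for 20 libraries of left hippocampus, without normalization. Per the study's methods and processing notes, reads were aligned to mm10 with STAR and counted with featureCounts, and 0 other per-sample columns were present. Gene IDs were matched to GENCODE symbols (38872 of 39056, 99.5%).

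Counts were fitted with edgeR 4.0.16 in R 4.3.3: a filter on low counts (at least 10 in the smallest group, 15 in total), TMM normalization, 1 group factor over all 20 mice, and quasi-likelihood F-tests of 5 contrasts (3 of them reported as tests for the members), with Benjamini-Hochberg adjustment over 16107 genes and a threshold of 0.05. SEs were derived from the F statistic, CPM were counts over the library total times its TMM factor, and log2 CPM used a prior count of 2. The relative test used an exact permutation in Python 3.11.15 with scipy 1.17.1. The fit was also run on simulated data, and the outcome of that is not given here. Same-numbered mice did not deviate together (2 of 16 pairs had r over 0.1), so no block was used. Alternatives were DESeq2 1.42.0, edgeR's exactTest, other size factors and filters, the compared mice alone, a replicate block, a choroid plexus covariate and leaving out each mouse.

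The 7 members and the gene lists (checkpoint receptors, ligands, costimulators, inhibitory signalling, and markers of cell types and states) were chosen with earlier results of these data known. Genes named are the 7 members, those most like them in profile (6 for Pdcd1, 3 for each other), the most abundant and the most changed called genes of the lists (up to 4 each), and label checks. A planned search of the members' proteins was not run.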

Additional observations from a re-analysis of the deposited data

Results flagged for a closer look

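Lgals9 was singled out because its KO effect differed between the backgrounds: the interaction estimate was 0.90 on the log2 scale. Among 28 groups of 5 mice examined (7 genes in 4 groups), 4 held a mouse set apart from the rest of its group by a wide gap; for continuous values chance gives about 1 in 20 groups. Pdcd1 was at 0.0 CPM in WT Non-Tg replicate 6 and at 0.0964 CPM in KO Non-Tg replicate 4, which are 0 and 2 counts; at 0 to 3 counts per mouse a difference of 1 count can give such a gap, so that rate does not apply to them. Havcr2 was at 3.14 CPM in KO Non-Tg replicate 8, above the other KO Non-Tg mice, and Vsir at 30.2 CPM in KO Non-Tg replicate 4, likewise the highest of its group. No cause was tested for any of these.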

How the results depend on the processing

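For KO against WT in Tg-SwDI mice, 2 of 7 checkpoint genes were called; 1 was called with library size alone, 1 with the compared mice alone and 0 with a replicate block, and 1 to 3 were called when single mice were left out. By library size alone, KO and WT Tg-SwDI mice did not overlap for 1 member in place of 2. The numbers did not pair the mice, and with the block Pdcd1 had an adjusted p of 0.306 and Lgals9 of 0.109 at log2 fold changes of 0.78 and 0.63. For the interaction, 2 members were called with DESeq2 and 2 with a mean CPM of at least 1, and 1 to 2 without single mice. Other checkpoint genes called for KO against WT in Tg-SwDI mice numbered 2 once the choroid plexus level was a covariate, 0 under the replicate block, and 1 to 2 without single mice. For Tg-SwDI against Non-Tg in KO mice, the choroid plexus covariate took the genes called from 3351 to 1228. In Non-Tg mice 0 members were called under every alternative run. Relative to microglia genes 0 were called, but a single gene could not go below an adjusted p of 0.0556 with 5 against 5 mice or 0.111 with 5 against 4, so this says nothing about stability. The order of levels kept 26 of 28 places with the longest transcript as length.

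Directions turned only for values that did not pass the test. For KO against WT in Tg-SwDI mice, Lilrb4a was -0.22 with the block and -0.045 without KO Tg-SwDI replicate 1. In Non-Tg mice, with the choroid plexus covariate Cd274 was 0.073 and Lilrb4a -0.0058, and with the block Lilrb4a was -0.32. When single mice were left out, Cd274 ranged from -0.14 to 0.20, Vsir from -0.12 to 0.0066 and Lilrb4a from -0.16 to 0.40 there. The Pdcd1 interaction ran from -0.084 to 0.45 and that of Lilrb4a from -0.17 to 0.39. Relative to microglia genes, Cd274 ranged from -0.030 (without WT Tg-SwDI replicate 4) to 0.21 when single mice were left out, and with 10 homeostatic genes as reference Havcr2 was 5.0e-05, Vsir -0.032, Lilrb4a -0.11, Pdcd1 0.50 and Lgals9 0.51. The cause of these changes was not tested. Counts of 0 to 5 per mouse limit what the Non-Tg groups can show for Pdcd1 and Lilrb4a.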
